A study of Mus musculus with 6 samples.

Results

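Unfolded protein response regulators were followed in L929 cells, a mouse fibroblast line that dies when tumour necrosis factor is combined with a block of transcription. The set holds 9 genes chosen by symbol, Xbp1, Atf4, Atf6, Ddit3, Ern1, Eif2ak3, Nupr1, Trib3 and Herpud1, out of 54532 rows of the deposited count table. All 9 had enough counts to be tested, among 13290 tested genes. The control group held 3 libraries from wild-type L929 cells that their titles name as controls. The treated group held 3 libraries from wild-type L929 cells given TNF-α (10 ng/ml) and actinomycin D (1 µg/ml) over 12 hours. Actinomycin D blocks transcription, and TNF-α is a cytokine of inflammation. No group received 1 agent alone, so each difference belongs to the combination. The labels give the treatment protocol for control samples too, whereas their titles and treatment tags say control, and they name no separate cultures. The p-values therefore reflect only how far these libraries scatter, which may be technical.

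The unfolded protein response is the signalling system by which a cell reacts to misfolded protein in the endoplasmic reticulum (ER). Its 3 sensors sit in the ER membrane. IRE1α (Ern1) is a kinase and nuclease that splices Xbp1 mRNA, PERK (Eif2ak3) phosphorylates the translation factor eIF2α, and ATF6 (Atf6) is cut in the Golgi to release a transcription factor. Phosphorylated eIF2α lowers general translation while favouring that of ATF4, and ATF4 drives CHOP (Ddit3), Trib3 and Nupr1. Fibroblasts secrete collagen and other matrix proteins and so carry a steady load of ER folding.

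Some sequences place the members in this system. The coding sequence of the annotated transcript Xbp1-201 (GENCODE, GRCm38) holds the stretch that IRE1α removes, bases 479 to 504 of the coding sequence. It is shown in capitals with its coding flanks, since gene counts do not separate mRNA with and without it:
Xbp1: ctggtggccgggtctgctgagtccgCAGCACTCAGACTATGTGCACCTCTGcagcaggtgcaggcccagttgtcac
Without these 26 bases the reading frame from the start codon grows from 804 to 1116 bases, stop codon included. Those lengths belong to the unspliced and the spliced product of Xbp1, and the values below are for all Xbp1 mRNA together.

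RefSeq promoters (GRCm38.p6, 250 bases before to 50 after the start site) were at hand for 8 of the 9 members, all but Atf6. They were searched on both strands for 4 elements. The ER stress element, CCAAT and CCACG with 9 bases between them, was in 0 of the 8 and in 0.119% of all 32851 promoters. Its compact form ERSE-II, ATTGG and CCACG with 1 base between them, was in Herpud1 alone among the 8 and in 0.0365% of all promoters. The composite C/EBP-ATF element that ATF4 binds, TGATGCAA, was in Herpud1 and Nupr1 and in 0.895% of all promoters. The core of the XBP1-bound element, TGACGTGG, was in 0 of the 8 and in 0.676% of all promoters. These 2 windows are shown because Herpud1 and Nupr1 share a match, in capitals here as TTGCATCA on the gene's strand, while their mRNA levels moved in opposite directions. The other match in capitals is ERSE-II. The Herpud1 window is chr8:94386297-94386407 on the plus strand and the Nupr1 window chr7:126625563-126625590 on the minus strand:
Herpud1: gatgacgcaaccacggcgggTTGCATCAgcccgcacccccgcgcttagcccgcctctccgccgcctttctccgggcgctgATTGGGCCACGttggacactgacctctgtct
Nupr1: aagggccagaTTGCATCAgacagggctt
The shared match lies 112 to 105 bases before the RefSeq start in Herpud1 and 110 to 103 bases before it in Nupr1. In Nupr1 that place falls within the annotated exon 1 of the transcript Nupr1-201. A match is a description of the letters and not a measured binding site.

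Library totals ran from 16056207 to 18036322 counts. Cytosolic ribosomal protein genes took 7.32% to 8.57% of counts in controls and 17.9% to 22.4% in treated libraries. The 10 fibroblast markers summed to 6337 to 8199 TMM-scaled CPM (counts per effective library size) in controls and 20410 to 23833 in treated libraries. Most of these counts came from Vim, the collagens, Sparc and Fn1. By library total alone the sums were 9654 to 10979 and 13055 to 16767. Pdgfra (-1.61) and Pdgfrb (-0.93) were called lower, and Thy1 had 0 to 4 counts. Of 8 macrophage markers, 4 were tested and their list summed to 7.32 to 9.61 TMM-scaled CPM in controls and 54.9 to 70.3 after treatment, through Cd68, Lyz2 and Cd14, or 11.1 to 12.9 and 41.5 to 44.96 by library total alone. The 4th tested marker, Csf1r, was at 0.48 and not called (edgeR adjusted p = 0.496), and Fcgr1 had 2 to 6 counts in controls and 0 after treatment. The defining leukocyte gene Ptprc had 0 or 1 count per library and Itgam was at 0. The 5 epithelial and 5 endothelial markers stayed at or under 1.59 TMM-scaled CPM in sum, with Epcam, Kdr and Tie1 at 0 in all libraries. The part of these markers in the results was not tested. Bulk samples cannot tell fewer cells from less RNA per cell.

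Across the transcriptome 74.8% of tested genes passed an adjusted p of 0.05 in edgeR's quasi-likelihood test, 34.6% higher and 40.2% lower after treatment. Among the 9 regulators 7 were lower, 1 was higher and 1 did not pass. The median log2 fold change was -1.25 for the regulators and -0.18 for all tested genes. Treated and control values did not overlap for 8 of the 9, beside 77.9% of all tested genes. For 7 of them every treated library was below every control, as for 42% of tested genes, and 5 were at least 2-fold lower, beside 33.1%. Together the 9 genes took 0.202% ± 0.0097 of all counts in controls (SD, n = 3 libraries) and 0.070% ± 0.0041 after treatment (n = 3). CPM values below are scaled by TMM factors, which hold the bulk of genes level between libraries. On that scale a change is relative to other mRNAs and is not an amount per cell.

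**Figure D1:**
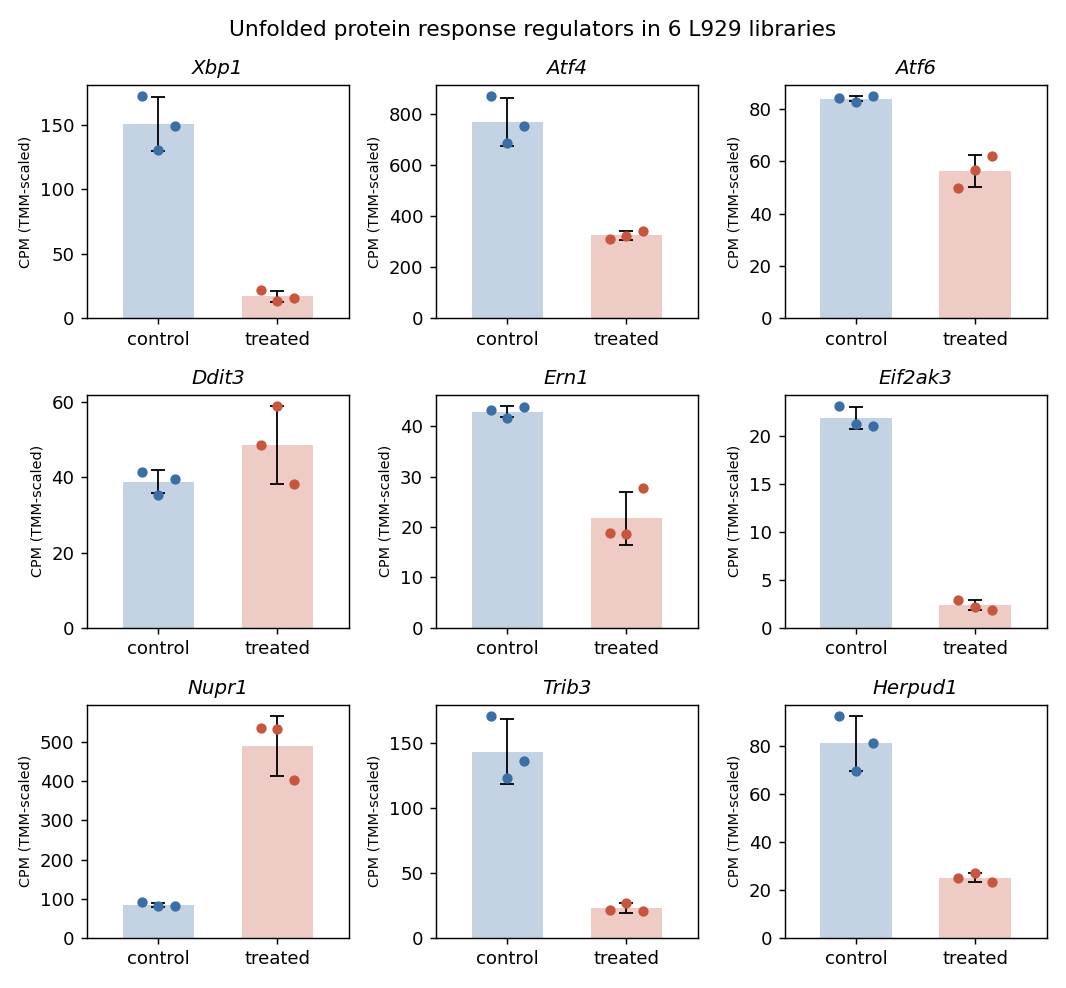
Levels of the 9 regulators in TMM-scaled CPM on linear axes that start at 0, in 3 control and 3 treated libraries. Points are libraries, bars are group means and error bars are SD; Nupr1 is the 1 gene whose treated points all lie above the controls, and Ddit3 is the 1 gene whose groups overlap.

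The sensors were called lower by unequal amounts, with the PERK gene far below the others. With the trend of fold change on gene length removed, Eif2ak3 kept its call at -2.76, while Ern1 (-0.28) and Atf6 (0.19) did not pass. Eif2ak3 (PERK, chromosome 6 from 70844515 to 70905245, plus strand) had 23.1, 21.3 and 21.1 CPM in control replicates 1 to 3 and 2.91, 2.21 and 1.91 CPM in treated replicates 1 to 3. In counts that was 559, 521 and 533 against 33, 25 and 25, so every treated library held far fewer reads than any control. Its log2 fold change was -3.22 ± 0.25 (SE), or 9.32-fold lower (adjusted p = 1.1e-06, edgeR quasi-likelihood test), and 4.99% of tested genes had a lower value. On the log2(FPKM + 1) scale, which understates changes of low genes, limma gave -1.69. Ern1 (IRE1α, chromosome 11 from 106394650 to 106487852, minus strand) had 43.2, 41.7 and 43.9 CPM in controls and 18.8, 18.6 and 27.8 CPM in treated libraries. Treated replicate 3 was the highest of its group, yet below every control. Its log2 fold change was -0.98 ± 0.20 (adjusted p = 0.00089). Atf6 (chromosome 1 from 170704674 to 170867771, minus strand) had 84.3, 82.9 and 84.9 CPM in controls and 49.9, 56.7 and 62.2 CPM after treatment. The control libraries lay closer together than the treated ones, and the groups did not overlap. Its change of -0.58 ± 0.15 (adjusted p = 0.0041) was the smallest of the called members. The ratio of Ern1 to Eif2ak3 counts, which does not depend on any scaling, was 1.87, 1.96 and 2.09 in controls and 6.45, 8.4 and 14.6 in treated libraries (exact two-sided permutation p = 0.1, the smallest that 3 against 3 libraries allow, and 0.113 adjusted over the 36 ratios computed among members).

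The transcription factors at the ends of the IRE1α and PERK arms differed as well. Xbp1 (chromosome 11 from 5520659 to 5525893, plus strand) encodes the factor that IRE1α splicing activates. It had 172, 131 and 149 CPM in controls and 21.7, 13.2 and 15.6 CPM in treated libraries. All treated values lay well under the lowest control, with a log2 fold change of -3.16 ± 0.21, 8.95-fold lower (adjusted p = 6.6e-07). The ratio of Xbp1 to Eif2ak3 counts was 7.45, 6.13 and 7.08 in controls and 7.45, 5.96 and 8.2 after treatment (exact permutation p = 0.7). The difference of 0.06 in mean log2 ratio, beside SDs of 0.15 and 0.24, was the smallest among the 36 ratios. So few libraries cannot show that both genes fell equally, and Eif2ak3 had only 25 to 33 treated counts. With the length trend removed Xbp1 stood at -3.42 and Eif2ak3 at -2.76. Atf4 (chromosome 15 from 80255184 to 80257541, plus strand), the factor whose translation eIF2α phosphorylation favours, was the most abundant member in controls. It had 870, 685 and 751 CPM there and 308, 322 and 340 CPM in treated libraries. The treated libraries were close to each other and below all controls, with a change of -1.25 ± 0.16 (adjusted p = 3.4e-05). Protein levels and phosphorylation were not measured in these data.

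Ddit3 and Nupr1 were the 2 members not called lower on the TMM scale. Ddit3 (chromosome 10 from 127290774 to 127296288, plus strand) encodes CHOP, a factor linked to cell death after prolonged ER stress. It had 41.4, 35.4 and 39.6 CPM in controls and 48.5, 59.0 and 38.2 CPM in treated libraries. Its raw counts were 865 to 1002 in controls and 501 to 667 after treatment. Treated replicate 3 lay within the control range, and the log2 fold change of 0.32 ± 0.19 did not pass (adjusted p = 0.139). Without treated replicate 3 the value was 0.43 and passed (adjusted p = 0.019). Without treated replicate 2 it was 0.09 (adjusted p = 0.65). It was called lower by library size alone (-0.73) and with the length trend removed (-0.69). Against Atf4 in the same libraries, Ddit3 was less unequal after treatment. There were 21.02, 19.4 and 19.0 Atf4 counts for each Ddit3 count in controls and 6.35, 5.46 and 8.89 in treated libraries (exact permutation p = 0.1, adjusted 0.113). A second table row with the symbol Ddit3 had 0 counts in all libraries. Mars, on the opposite strand with 3257 to 5810 counts, overlaps 68 bases of Ddit3, and reads there cannot be told apart if counting ignored strand, which the sources used here do not give.

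Nupr1 (chromosome 7 from 126623249 to 126630861, minus strand) encodes a small stress-induced nuclear protein and was the 1 member that rose. It had 90.3, 80.0 and 80.1 CPM in controls and 537, 534 and 402 CPM in treated libraries. Treated replicate 3 was the lowest of its group and still far above every control. The log2 fold change was 2.56 ± 0.17, or 5.88-fold higher (adjusted p = 6.4e-07), and 93.9% of tested genes had a lower value. Raw counts also rose, from 1957 to 2182 in controls to 5272 to 6086 after treatment. Within the set, Nupr1 went from 5.92% of the members' counts in controls to 48.5% in treated libraries, while Atf4 went from 54.3% to 32.2%. There were 9.63, 8.56 and 9.37 Atf4 counts for each Nupr1 count in controls and 0.573, 0.603 and 0.845 after treatment (exact permutation p = 0.1, adjusted 0.113). With ribosomal protein genes held equal between libraries the change of Nupr1 was 0.13 and did not pass (adjusted p = 0.396).

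Trib3 and Herpud1, which act downstream, both fell. Trib3 (chromosome 2 from 152337422 to 152344032, minus strand) encodes a pseudokinase that ATF4 and CHOP induce and that restrains CHOP activity. It had 171, 123 and 136 CPM in controls and 21.4, 26.9 and 20.2 CPM in treated libraries, with no overlap. Its log2 fold change was -2.65 ± 0.19, 6.29-fold lower (adjusted p = 8.3e-07). Herpud1 (chromosome 8 from 94386438 to 94395377, plus strand) encodes an ER membrane protein with a ubiquitin-like domain that serves ER-associated degradation. It had 92.4, 69.3 and 81.3 CPM in controls and 24.7, 26.9 and 23.2 CPM after treatment, again with every treated library below every control. Its change was -1.70 ± 0.17, 3.25-fold lower (adjusted p = 5.5e-06). An antisense gene, Gm15890, overlaps 535 bases of Herpud1 and had 0 counts in all libraries. For each Trib3 count there were 0.242, 0.288 and 0.291 Ddit3 counts in controls and 2.27, 2.19 and 1.89 in treated libraries (exact permutation p = 0.1, adjusted 0.113).

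Levels between genes were compared per length with the deposited FPKM values. In controls Atf4 stood at 314 ± 38 FPKM (SD, n = 3), followed by Trib3 at 65.1 ± 11.2 and Xbp1 at 44.7 ± 6.1. Herpud1 (33.5 ± 4.7) and Nupr1 (32.0 ± 2.2) overlapped, and Ddit3 had 21.8 ± 1.7 FPKM. The sensors were the lowest, with Atf6 at 8.78 ± 0.08, Ern1 at 5.07 ± 0.12 and Eif2ak3 at 3.49 ± 0.18 FPKM. After treatment Nupr1 led at 200 ± 38 FPKM, above Atf4 at 139.5 ± 1.8 in every library. Ddit3 followed at 28.99 ± 6.87 FPKM. Trib3 (10.96 ± 1.90) and Herpud1 (10.9 ± 1.1) overlapped, as did Atf6 (6.19 ± 0.45) and Xbp1 (5.30 ± 1.52). Ern1 had 2.69 ± 0.54 FPKM and Eif2ak3 0.398 ± 0.102 FPKM, the lowest member in each group.

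**Figure D2:**
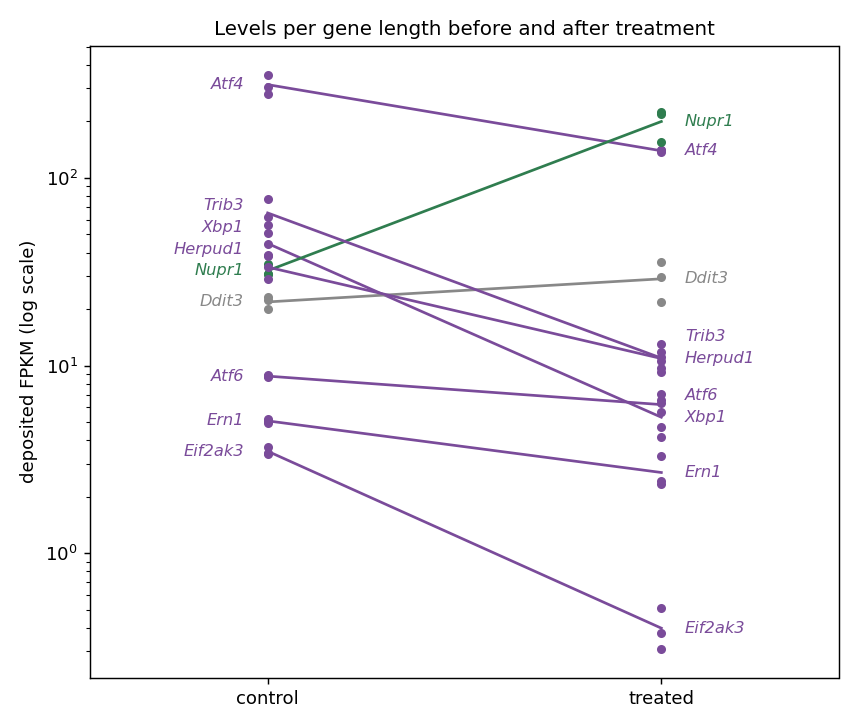
Deposited FPKM of the 9 regulators on a log axis, control at the left and treated at the right; points are libraries and lines join group means. Nupr1 crosses from a mean of 32.0 to 200 FPKM, above Atf4, while Xbp1 drops from the third place to the level of Atf6.

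The size of each change depended on the scaling and on gene length. The median log2 fold change of all tested genes shifted by -1.04 with library size as the only scaling and by -2.38 with ribosomal protein genes held equal, while median-ratio and upper-quartile factors shifted it by 0.11 and 0.16. Under these 4 scalings the 7 members called lower stayed below 0 and called. Library size alone and equal ribosomal protein genes moved all genes down, so values below 0 were bound to stay there. Ddit3 was called lower by library size alone (adjusted p = 0.0029) and higher, at 0.49, with upper-quartile factors (adjusted p = 0.029). Of all tested genes, 17.1% were called higher and 59.6% lower by library size alone, and 1.89% and 82.3% with ribosomal protein genes held equal. Those shares are the background for the list counts given below under these scalings. Measured from that median, Xbp1 lay at -2.99, Nupr1 at 2.73 and Ddit3 at 0.50 with TMM factors. By library size alone these distances were -2.99, 2.71 and 0.48. Such scalings differ only in a factor per library, which shifts all genes by nearly the same amount. Near-equal distances are therefore nearly fixed in advance.

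**Figure D3:**
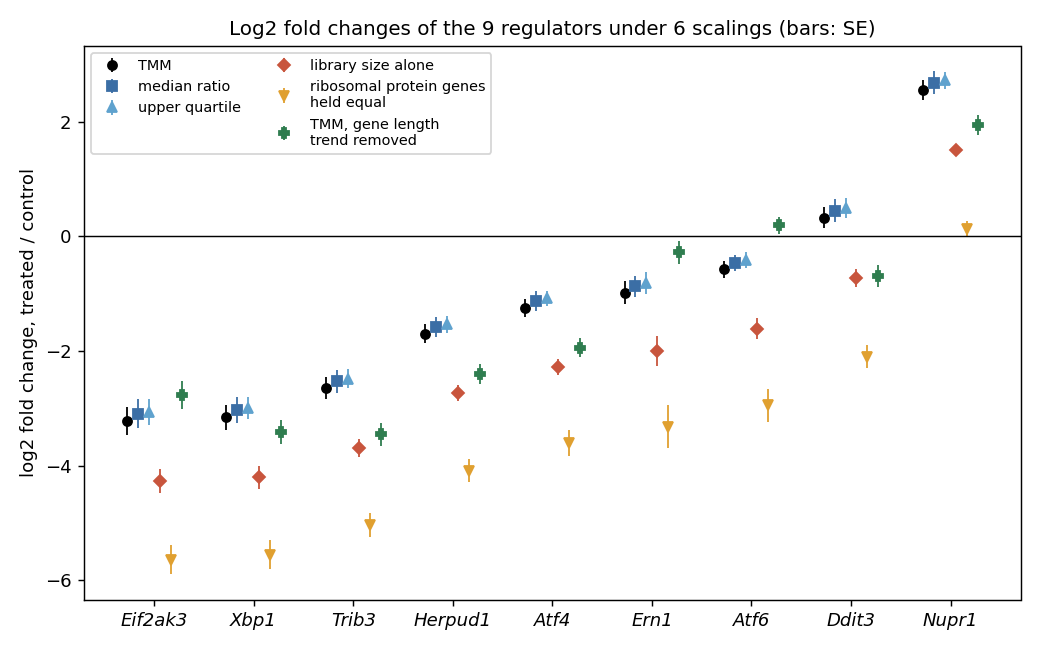
Log2 fold changes of the 9 regulators, treated over control, under 6 scalings, with SE as bars. TMM, median-ratio, upper-quartile, library-size and ribosomal-protein scaling differ only in a factor per library, so the same order of genes under them is nearly fixed in advance. With the gene length trend removed Atf6 moves to 0.19 and Ddit3 to -0.69.

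Short genes had higher log2 fold changes than long genes in these libraries. Medians over 10 bins of gene length ran from 1.78 for genes of up to 1118 bases to -1.27 for genes of at least 9338 bases. Across the 9 members Spearman's rho between length and log2 fold change was -0.07, and across all 13290 tested genes it was -0.42. These are descriptions, since genes of the same libraries are not independent. Ern1 (8173 bases) lay close to the median of its length class, -1.098, and Atf6 (9231 bases), in the same class, lay above it. When the length trend was removed, Atf6 stood at 0.19 (adjusted p = 0.261) and Ern1 at -0.28 (adjusted p = 0.225), and neither passed. Ddit3 (1713 bases) then stood at -0.69 and was called lower (adjusted p = 0.0071). Eif2ak3 stayed at -2.76, Xbp1 at -3.42, Trib3 at -3.46, Herpud1 at -2.41, Atf4 at -1.94 and Nupr1 at 1.94, all called. Among the pathway genes named below, the same step kept the call but moved the value of Eif2ak4 to -0.74, Ppp1r15a to 0.53, Sel1l to -0.54, Fgf21 to 1.82, Gdf15 to 1.14, Phgdh to 1.11, Sec61b to 1.18, Rnf5 to 0.91 and Selenok to 0.95.

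**Figure D4:**
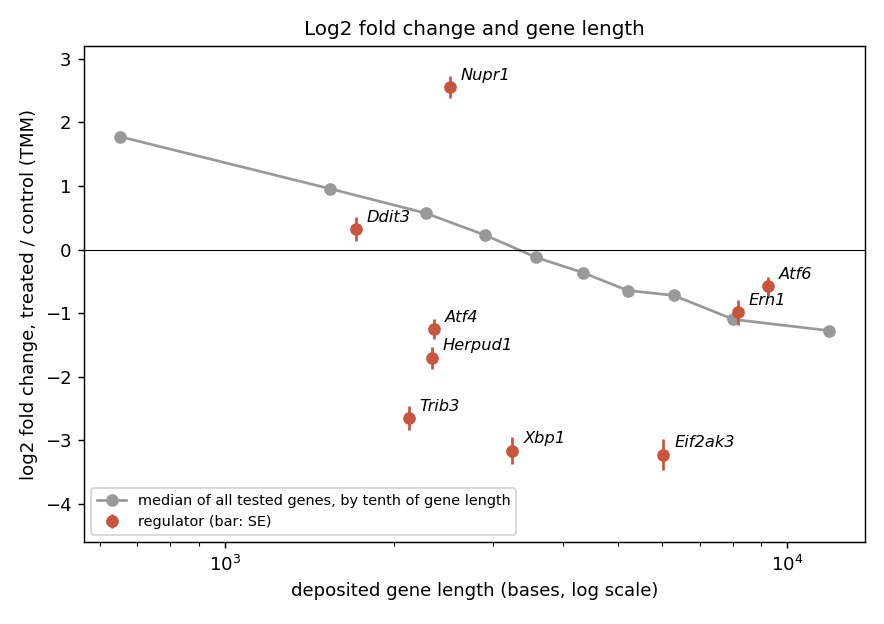
Log2 fold change (TMM scale) against deposited gene length on a log axis for the 9 regulators, with SE as bars; grey points are medians of all tested genes in 10 bins of length. Ern1 lies near the grey line, Nupr1 and Atf6 lie above it, and Xbp1, Trib3, Herpud1, Atf4, Eif2ak3 and Ddit3 lie below it.

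Exon number and length of the annotated transcripts varied widely among the members. Nupr1-201 has 3 exons and a coding sequence of 243 bases, the shortest of the set. Ddit3-201 has 4 exons and a coding sequence of 507 bases. Atf4-201 likewise has 3 exons, and Atf4 was called lower. The sensor transcripts, whose genes were also called lower, have 16 (Atf6), 22 (Ern1) and 17 (Eif2ak3) exons. The pentamer ATTTA, a feature of many short-lived mRNAs, was counted in the 3′ untranslated region. It occurred 3 times each in Xbp1 and Eif2ak3, or 3.03 and 3.13 per kb, beside a median of 1.18 per kb over 11240 tested protein-coding genes. Atf6 had 7 copies (1.34 per kb) and Ern1 had 4 (1.03 per kb). Trib3, Herpud1, Atf4, Ddit3 and Nupr1 had 0 copies, a group that holds the riser, the uncalled gene and 3 genes that fell. The searched regions of Atf4 (81 bases) and Ddit3 (197 bases) were short beside a median of 932 bases. Any link of exon number, transcript length or ATTTA to the changes was not tested.

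The 6 lists of pathway genes around the regulators did not move as 1 block. They share genes, so their counts are not of separate sets. Dnajb9 and Pdia6, for example, are both XBP1 targets and ER chaperones. Sel1l is both an XBP1 target and a degradation gene, and Ppp1r15a is both an ATF4 and CHOP target and an eIF2α control gene. Among sensor relatives and partners, 5 of 12 tested genes were higher and 7 lower (41.7% and 58.3%). On the same TMM scale 34.6% of all tested genes were higher and 40.2% lower. The list median was -0.99. Atf6b, the close relative of Atf6, rose by 1.88 ± 0.16 to 308 ± 15.9 CPM from 83.7 ± 13.8, and Tmbim6, an ER membrane protein that restrains IRE1α, rose by 1.83 ± 0.19; with ribosomal protein genes held equal they were at -0.49 and -0.56. Rtcb, the ligase that joins spliced Xbp1, was at 0.45 ± 0.17, and Mbtps1, the protease that cuts ATF6 first, at 0.34 ± 0.13, both called higher but at -0.60 and -0.69 by library size alone. The call of Rtcb was lost without control replicate 2 or 3 or treated replicate 1 or 2, and that of Mbtps1 without any 1 library other than treated replicate 3 (edgeR adjusted p from 0.060 to 0.172). With the length trend removed Rtcb was at -0.11 and Mbtps1 at 1.21. Creb3l4, a relative of ATF6 with 1.22 ± 0.18 and 4.94 ± 0.81 CPM, was named after its values were seen and completes the 5 genes that rose. Creb3l1, an ER-tethered factor for matrix genes, fell by 2.53 on the log2 scale, and Map3k5 and Traf2, which link IRE1α to JNK, changed by -2.498 and -1.78. Scaled by library size, 3 of the 12 were higher, and at equal ribosomal protein levels none was.

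The eIF2α control genes, which include Eif2s1 and Eif2b genes beside those that act on phosphorylation, gave 2 of 14 higher and 5 lower. These shares were 14.3% and 35.7%, beside 34.6% and 40.2% of all tested genes. The list median equalled that of all genes at -0.18. Ppp1r15a, the stress-induced phosphatase subunit GADD34, rose from 57.0 ± 9.03 to 109 ± 12.2 CPM, a change of 0.93 ± 0.17 that was -0.10 by library size alone. Ppp1r15b, its constitutive counterpart, changed by -0.64 ± 0.19, and by -0.25 with its call lost (adjusted p = 0.26) when the length trend was removed. The other eIF2α kinase genes Eif2ak1 (-3.37 ± 0.24) and Eif2ak4 (-1.38 ± 0.19) fell together with Eif2ak3, and Eif2ak2 was at -0.19 and not called. Nck1, an adaptor that lowers eIF2α phosphorylation, fell by 5.19 on the log2 scale to 0.347 CPM. Eif2b5 rose by 0.72 ± 0.17, which was -0.33 by library size alone and 0.15 with its call lost (adjusted p = 0.44) when the length trend was removed. Eif2b4, named after its values were seen, changed by -1.004 and was called lower.

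Known targets of ATF4 and CHOP went both ways, and any link to the lower Atf4 mRNA was not tested. Of 38 tested targets 19 were higher and 10 lower (50% and 26.3%), beside 34.6% and 40.2% of all tested genes. Their median was 0.42. By library size alone the split was 7 higher and 22 lower, beside 17.1% and 59.6% of all tested genes, and at equal ribosomal protein levels 1 and 36, beside 1.89% and 82.3%. Fgf21, a stress hormone, rose from 0.89 to 9.45 CPM (3.39 ± 0.34). It had only 15 to 27 counts in each control library and reached the 5 CPM mean for naming through its treated values. Gdf15, another stress cytokine, rose by 2.08 ± 0.19 and Phgdh, the entry enzyme of serine synthesis, by 1.74 ± 0.20. Gdf15 and Phgdh were at -0.32 and -0.66 when ribosomal protein genes were held equal. Jdp2, a bZIP repressor, fell by 4.63 on the log2 scale, the arginine transporter gene Slc7a1 by 2.80 and the stress sensor Sesn2 by 2.43. Chac1, a glutathione-degrading enzyme and a common readout of ATF4 and CHOP, fell from 9.86 ± 2.04 to 1.88 ± 0.225 CPM. Asns, for asparagine synthetase, was at 0.41 ± 0.16 and called higher, a value that was -0.63 by library size alone and -0.089 with the length trend removed. Its call was lost without control replicate 2 or 3 or treated replicate 1 or 2 (0.28 to 0.35). Atf3 and Stc2 were listed at 0 counts in all 6 libraries, which allows up to 0.0582 CPM by group total in controls and 0.0584 after treatment, for counting error only.

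XBP1 targets had 19 of 41 members higher and 9 lower (46.3% and 22%), beside 34.6% and 40.2% of all tested genes. Their median was 0.28. Total Xbp1 mRNA was 8.95-fold lower, and any link to its targets was not tested. The split was 7 and 24 under library-size scaling, beside 17.1% and 59.6% of all tested genes, and at equal ribosomal protein levels 0 and 37, beside 1.89% and 82.3%. The rises were led by small subunits of the ER entry machinery, Sec61b (2.49 ± 0.24), Sec61g (2.43 ± 0.20) and Ssr4 (2.41 ± 0.22), all 3 of which lost their calls when ribosomal protein genes were held equal, at 0.053, -0.00022 and -0.018. Sec24d, a coat subunit for ER export, fell from 145 ± 11.7 to 6.92 ± 1.54 CPM, and Edem3, which trims mannose from misfolded glycoproteins, fell by 3.83 and the ER channel gene Wfs1 by 2.40 on the log2 scale. Dnajb9, a BiP cochaperone strongly tied to XBP1, had 30.9 ± 1.52 and 23.9 ± 3.79 CPM (adjusted p = 0.085). Edem1, another such target, had 122 ± 0.608 and 101 ± 10.4 CPM (adjusted p = 0.114). Both were called lower by library size alone, at -1.40 and -1.29, and without treated replicate 3, at -0.55 (adjusted p = 0.013) and -0.39 (adjusted p = 0.0094). With no filter on low counts both were called lower as well. With the length trend removed Dnajb9 stood at -0.97 and was called lower (adjusted p = 0.00068), whereas Edem1 stood at 0.26 and did not pass.

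ER chaperones and folding enzymes gave 26 of 35 higher and 3 lower (74.3% and 8.57%), beside 34.6% and 40.2% of all tested genes. Their median was 1.11. Under library-size scaling 15 were higher and 9 lower, and at equal ribosomal protein levels 0 and 28. Prdx4, an ER peroxidase, rose by 2.65 ± 0.20, Selenof, a selenoprotein of ER quality control, by 2.46 ± 0.21 and the prolyl isomerase gene Fkbp2 by 2.38 ± 0.25, and these lost their calls when ribosomal protein genes were held equal, at 0.23, 0.036 and -0.068. With the length trend removed Fkbp2 was at 0.49 and not called (adjusted p = 0.087). Hspa5, the chaperone BiP that keeps the sensors quiet and is a standard readout of this response, went the other way, from 3667 ± 71.9 to 2292 ± 201 CPM. Its log2 fold change was -0.68 ± 0.17 (adjusted p = 0.0041). Hsp90b1, for the chaperone GRP94, had 1238 ± 353 and 1874 ± 509 CPM with overlapping groups (adjusted p = 0.057). It passed as higher with median-ratio or upper-quartile factors, the stricter filter, DESeq2 (0.70, adjusted p = 0.0098), limma on FPKM, or without control replicate 2 (0.77, adjusted p = 0.030). By library size alone it was at -0.43, and at equal ribosomal protein levels at -1.77. The other genes that fell were Txndc11 (-2.24 ± 0.18) and Dnajc1 (-1.41 ± 0.26), of which Dnajc1 was at -0.47 and not called (adjusted p = 0.127) with the length trend removed.

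ER-associated degradation genes gave 9 of 31 higher and 12 lower (29% and 38.7%), near the 34.6% and 40.2% of all tested genes. Their median was -0.18, as for all genes. With library-size scaling the split was 4 and 24, and at equal ribosomal protein levels 0 and 30. Sel1l, the scaffold of the HRD1 ubiquitin ligase, fell by 1.27 on the log2 scale, from 134 ± 6.62 to 55.6 ± 7.33 CPM, as did the ligase genes Rnf185 (by 2.76) and Rnf139 (by 2.56). Rnf5 (2.07 ± 0.19), the lectin gene Os9 (1.94 ± 0.15) and Selenok (1.86 ± 0.20) rose. These 3 were at -0.34, -0.46 and -0.57 with ribosomal protein genes held equal.

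**Figure D5:**
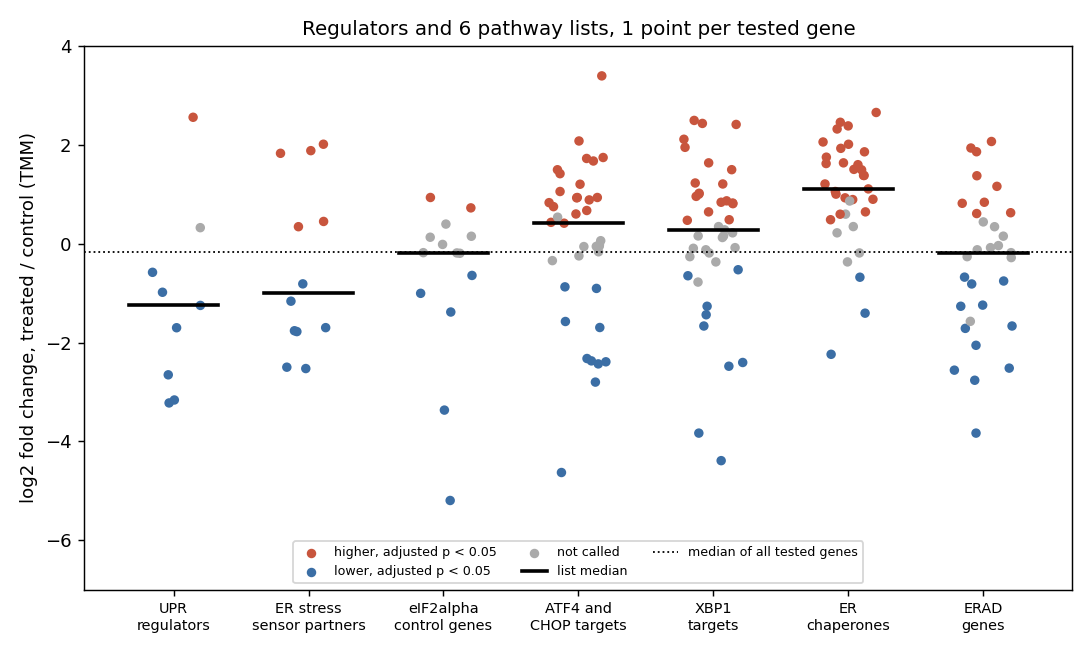
Log2 fold changes (TMM scale) of the 9 regulators and of the tested genes of 6 pathway lists, 1 point per gene, with list medians as black bars and the median of all tested genes (-0.18) as a dotted line. ER chaperones lie mostly above the dotted line with a median of 1.11, and the regulators mostly below it with a median of -1.25.

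The protein-coding gene with the nearest pattern was taken for each member as the smallest root-mean-square difference in centred log2 CPM over the 6 libraries, among 9154 candidates. It was Fam160b1 for Xbp1 (0.082), Csgalnact1 for Eif2ak3 (0.080), Dnaja3 for Trib3 (0.061) and Sf3b4 for Herpud1 (0.038). Atf4 was nearest to Tbc1d16 (0.043), Atf6 to Camkk2 (0.026), Ern1 to Socs7 (0.039), Ddit3 to Nradd (0.031) and Nupr1 to H2-Q4 (0.045). With 2 groups such likeness rests mostly on the difference between them.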

How the data were processed

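RNA sequencing of 3 control and 3 treated L929 samples was used. The authors deposited whole-number counts per gene and an FPKM table. The submitters' processing notes name HISAT2 2.1.0, RSEM 1.3.1, DESeq2 1.24.0, GRCm38 and mm10, with no role given for each. Each deposited FPKM value is the count over the deposited gene length, a value of another type, times a library's own constant. Set against division by the library's total count, that constant was 0.635 to 0.719 in control libraries and 1.22 to 1.64 in treated ones. Control columns carry the genotype name and were matched to the titles by number.

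Genes kept by filterByExpr were scaled by TMM and tested with edgeR 4.0.16 (robust glmQLFit, then glmQLFTest) in R 4.3.3, with Benjamini-Hochberg adjustment over all tested genes and a threshold of 0.05. The SE is the absolute log2 fold change over the root of F. The fit was tested on simulated data. Alternatives were other scalings and filters, DESeq2 1.42.0, limma 3.58.1 on log2 FPKM (pseudocount 1 or 0.1, mean FPKM 1 or more), a block by replicate number, an offset for gene length (lowess, span 0.3) and the omission of each library. Members and lists were chosen with earlier results of these data known. Named genes are all members, 11 fixed genes, each member's nearest gene, and up to 3 called rises and 3 called falls per list. Those rises and falls needed a mean of at least 5 CPM over the 6 libraries. Some genes, such as Fgf21, reached it through their higher group alone. Member coordinates are those of the deposited table and equal GENCODE M21. Plots were made in matplotlib 3.10.9 (Python 3.11.15).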

Additional observations from a re-analysis of the deposited data

How the results depend on the processing

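The 7 regulators called lower numbered 7 when any 1 library was left out, where 36.1% to 41.8% of all tested genes were lower. Under the other alternatives they numbered 6 to 8, with 6 under the length offset (39.5%) and 8 under the 2 scalings given next. Those called higher numbered 1 to 2 without 1 library, beside 30.2% to 33.2% of all tested genes. They numbered 2 with upper-quartile factors (37.7%) or the stricter filter (37.2%), and 0 with ribosomal protein genes held equal. By library size alone 2276 tested genes were higher and 7924 lower (17.1% and 59.6%). The counts higher were then 3 sensor partners, 0 eIF2α control genes, 7 ATF4 and CHOP targets, 7 XBP1 targets, 15 ER chaperones and 4 degradation genes, and the counts lower 11 eIF2α control genes, 22 ATF4 and CHOP targets, 24 XBP1 targets, 9 chaperones and 24 degradation genes. With ribosomal protein genes held equal 251 genes were higher and 10944 lower (1.89% and 82.3%). Higher were then 0 sensor partners, 0 eIF2α control genes, 1 ATF4 and CHOP target, 0 XBP1 targets, 0 chaperones and 0 degradation genes, and lower 14, 36, 37, 28 and 30 of the last 5 lists. Sensor partners called higher numbered 3 with no filter, beside 19.5% of all tested genes, and 3 to 5 without 1 library, beside 30.2% to 33.2%. Chaperones called lower numbered 5 with the length offset, beside 39.5% of all tested genes. The cause was not tested.

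Values that changed sign by library size alone were Asns -0.63, Ddit3 -0.73, Eif2b5 -0.33, Hsp90b1 -0.43, Mbtps1 -0.69, Ppp1r15a -0.10 and Rtcb -0.60. With ribosomal protein genes held equal they were Asns -1.98, Atf6b -0.49, Ddit3 -2.10, Eif2b5 -1.68, Fkbp2 -0.068, Gdf15 -0.32, Hsp90b1 -1.77, Mbtps1 -2.04, Os9 -0.46, Phgdh -0.66, Ppp1r15a -1.45, Rnf5 -0.34, Rtcb -1.95, Sec61g -0.00022, Selenok -0.57, Ssr4 -0.018 and Tmbim6 -0.56. With the length offset they were Asns -0.089, Atf6 0.19, Ddit3 -0.69, Edem1 0.26 and Rtcb -0.11.

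The labels give no shared batch for replicate numbers. Same-numbered libraries correlated at 0.22, -0.14 and 0.029 in their deviations from group means, and treated replicates 2 and 3 correlated best with another number. Deviations within a group of 3 libraries sum to 0, so these correlations constrain each other and cannot decide whether the numbers pair the samples. A replicate block gave 4450 genes higher and 5411 lower, and Ddit3 at 0.31 (edgeR adjusted p = 0.172). Among named genes the block ended the call of Mbtps1 (adjusted p = 0.076) and let Hsp90b1 pass (adjusted p = 0.013), and changed no other call. Block and length offset together gave 5 chaperones lower, beside 40.4% of all tested genes, with Asns -0.084, Atf6 0.19, Ddit3 -0.71, Edem1 0.25 and Rtcb -0.11. Among the 9 members depth limits Eif2ak3 most, with 25 to 33 counts in each treated library, and the named pathway genes Nck1 (0 to 9) and Edem3 (12 to 25) had fewer.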
